A study of Mus musculus with 20 samples.

Results

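The comparison described here sets 3 tumours of mice given olaparib alone (PARPi) against 3 tumours of untreated mice (control), that is 6 of the 20 RNA libraries of the study. The 6 libraries were chosen by their labels, and the comparison ran over 18144 of the 55406 genes in the count table, those with enough counts to be tested. Olaparib inhibits PARP1 and PARP2, enzymes that add chains of ADP-ribose to proteins at DNA breaks and help to repair them. Cells that lack BRCA1, which repairs double-strand breaks by homologous recombination, depend on these enzymes and are sensitive to the drug. DNA that reaches the cytosol of damaged cells can be sensed by cGAS, which signals through STING to type I interferon, and interferon in turn raises antigen presentation and chemokines that attract lymphocytes.

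All tumours grew from ID8 cells, a cancer line derived from ovarian surface epithelium of the mouse, with the genotype Trp53-/-Brca1-/- and a luciferase reporter, placed in the peritoneal cavity of female C57/BL6 mice. The PARPi mice (n = 3) received olaparib by mouth at 40 mg/kg each day, and the control mice (n = 3) received no treatment. No vehicle is named for the controls, and the time on treatment is not given in the sources used here. To see the olaparib contrast in other animals, tumours given olaparib with antibodies to CTLA-4 and PD-L1 (PARPi_CB, n = 3) were set against tumours given those antibodies without olaparib (CB, n = 3). The host mice are immunocompetent and carry their own Trp53 and Brca1, so the RNA of bulk tissue mixes tumour cells with immune, vessel and connective tissue cells of the host. In such tissue fewer cells of a type and less RNA per cell cannot be told apart.

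PARPi libraries held 31.0 to 34.6 M counts and control libraries 29.3 to 31.4 M. Over 14630 genes, 2 libraries of different groups differed by a root mean square of 0.503 to 0.560 log2 units, and 2 libraries of the same group by 0.446 to 0.501. The median log2 change over all tested genes was -0.01, and 47.2% of the genes had a positive change. The middle 90% of changes ran from -0.50 to 0.71, and for the 11659 genes that averaged 5 CPM or more (counts scaled to library size) from -0.24 to 0.34. At least a 2-fold change with no overlap between the groups was seen for 386 genes (2.13%), of which 287 were higher and 99 lower in PARPi tumours.

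Under the edgeR quasi-likelihood test, 12 genes passed an adjusted p of 0.05 (0.0661% of those tested), 10 higher (0.0551%) and 2 lower (0.011%) in PARPi tumours. At an unadjusted p under 0.05 there were 2065 genes (11.4%), 1255 higher (6.92%) and 810 lower (4.46%). All 3 PARPi libraries lay above all 3 controls for 2037 genes (11.2%) and below them for 1562 (8.61%). The adjusted count rests on the settings. DESeq2 called 349 genes (1.92%), 289 of them higher (1.59%), edgeR on the 6 libraries alone called 171, and without any 1 of the 6 libraries edgeR called 0 to 5 (0 without PARPi replicate 1 or 2 or control replicate 1 or 2, 5 without PARPi replicate 3 and 4 without control replicate 3). The changes below are therefore given mostly as size and direction, and a member that did not pass the adjusted test is given by its values.

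Of the called genes, Pou2af1 and Ly6d stood in the lists of lymphocyte genes, which held 93 tested members in all. Pou2af1 (ENSMUSG00000032053, chromosome 9, 51213708 to 51240080 on GRCm38), a coactivator with which B cells and plasma cells express immunoglobulin, had 59.9, 48.1 and 42.5 CPM in PARPi tumours, against 14.8, 14.5 and 18.4 CPM in controls. It rose by 1.66 ± 0.27 on the log2 scale (SE, edgeR adjusted p = 0.033). Ptprcap, which binds the phosphatase CD45 of lymphocytes, had 5.96, 6.81 and 4.55 CPM in PARPi tumours and 2.11, 1.38 and 2.35 CPM in controls, a rise of 1.57 ± 0.26 (edgeR adjusted p = 0.033). Each PARPi tumour exceeded each control for both genes.

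Ly6d, a surface protein that marks commitment to the B lineage and is also made by some epithelia, had 9.07, 11.02 and 7.60 CPM in PARPi tumours and 3.21, 3.26 and 5.62 CPM in controls (log2 change 1.19 ± 0.20, edgeR adjusted p = 0.035). Def6, a guanine nucleotide exchange factor of T cell receptor signalling, stood at 7.54, 7.003 and 8.01 CPM with olaparib and at 3.87, 4.23 and 3.87 CPM without it (0.91 ± 0.16, edgeR adjusted p = 0.035). Ccdc88b, a Hook-related protein of immune cells, had the smallest change of the called genes that rose, with 32.0, 30.6 and 27.4 CPM in PARPi tumours against 17.9, 18.4 and 18.7 CPM in controls (0.71 ± 0.12, edgeR adjusted p = 0.035). The lowest PARPi value of each of these 3 genes lay above the highest control value.

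H2-Q7 (ENSMUSG00000060550, chromosome 17, 35439155 to 35443773), a non-classical class I histocompatibility gene of the Qa-2 group, rose by 0.95 ± 0.17 (edgeR adjusted p = 0.0436), with 71.2, 71.4 and 68.0 CPM in PARPi tumours against 30.5, 40.9 and 37.8 CPM in controls. Its neighbours H2-Q4 and H2-Q6 are close copies, with changes of 0.64 and 0.73 that did not pass, and reads may be split among the 3 genes in a way that the counting does not resolve.

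The other called genes that rose were of low or moderate level. Kcnmb4 (chromosome 10, 116417861 to 116473878), a β subunit of the BK potassium channel, had 1.27, 1.38 and 1.30 CPM in PARPi tumours against 0.283, 0.269 and 0.364 CPM in controls, and had the smallest p of all genes (log2 change 2.09 ± 0.29, edgeR adjusted p = 0.024). Zcchc18, a zinc knuckle gene of the X chromosome, had 1.53, 1.73 and 1.94 CPM with olaparib and 0.315, 0.202 and 0.529 CPM without it (2.30 ± 0.37, edgeR adjusted p = 0.033). Sept3, a septin best known from neurons, had 3.11, 3.598 and 3.85 CPM in PARPi tumours and 1.102, 1.91 and 1.39 CPM in controls (1.26 ± 0.22). St8sia6, a sialyltransferase that makes ligands for inhibitory Siglec receptors, had 12.5, 12.1 and 10.5 CPM in PARPi tumours and 3.75, 5.21 and 5.79 CPM in controls (1.26 ± 0.22), and edgeR gave both genes an adjusted p of 0.035.

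Il23a and Cdh9 were the called genes that fell. Il23a (chromosome 10, 128296139 to 128298752), the p19 subunit of interleukin 23, had 1.38, 2.15 and 1.72 CPM in PARPi tumours, against 4.22, 5.37 and 4.30 CPM in controls (log2 change -1.40 ± 0.22, edgeR adjusted p = 0.033). Cdh9, a cadherin, was read with 1 count in each PARPi library and with 31, 49 and 15 counts in the controls (edgeR adjusted p = 0.0355). The ratio of PARPi to control was 0.0294, with an exact 95% interval of 0.00596 to 0.0886 that covers counting error only. DESeq2 gave this gene a log2 change of -5.07 but no adjusted p. Just outside the threshold stood Il12rb1, a receptor chain shared by interleukins 12 and 23 (log2 change 0.98 ± 0.18), and Krt7, a keratin of simple epithelia (-0.99 ± 0.18), both at an edgeR adjusted p of 0.0503.

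**Figure D1:**
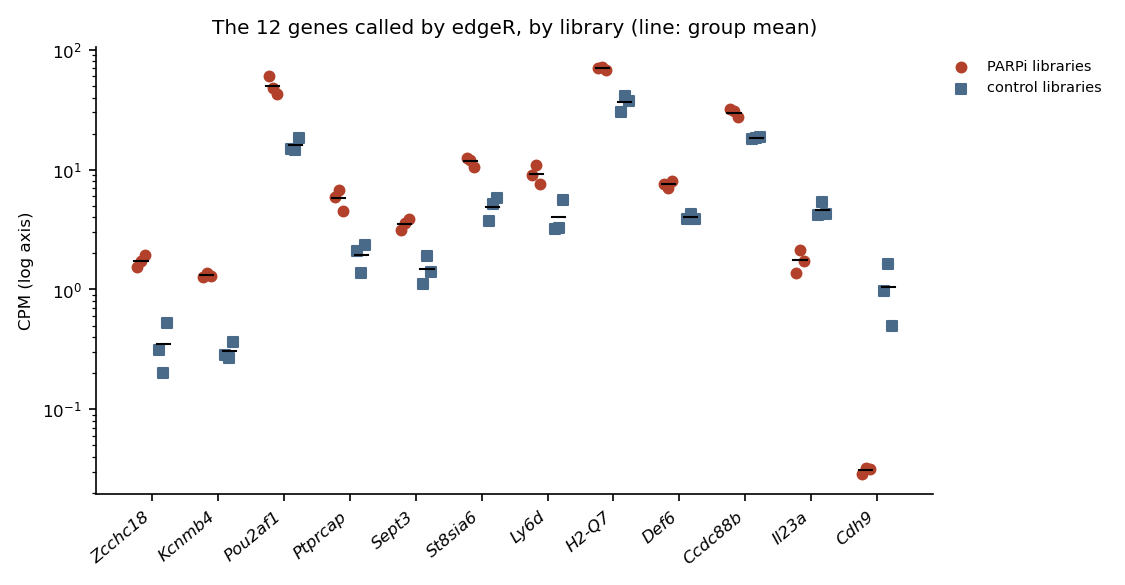
Level of the 12 genes called by edgeR in each library, in CPM on a log axis, with PARPi libraries as circles left of control squares and a line at each group mean. Genes are ordered by fitted log2 change, and the groups do not overlap for any of the 12.

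Gene lists of 48 pathways and cell types, with 745 tested members, were then used to describe the direction of change by function. Their mean level per library (the mean log2 CPM of the members) was higher in every PARPi library than in every control for 23 lists and lower for 4, and the groups overlapped for 21.

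**Figure D2:**
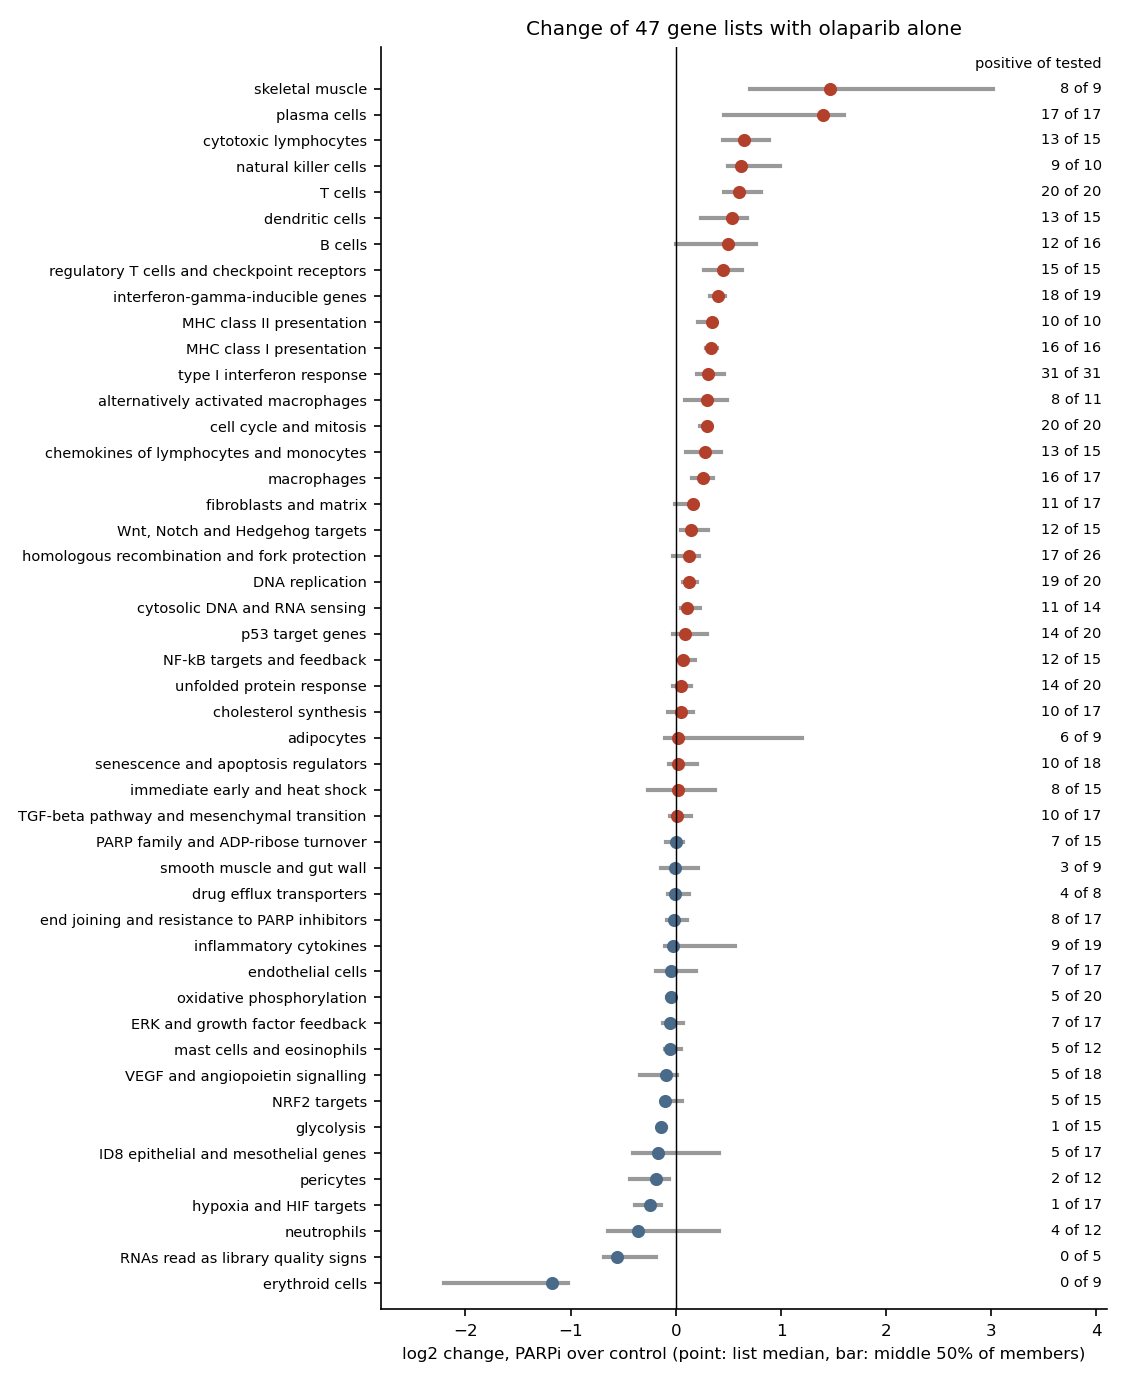
Median log2 change of PARPi over control for 47 gene lists (point), the middle 50% of the members (bar), and the number of members with a positive change among those tested. The list of pancreatic acinar genes, for which most members had 0 counts in the PARPi libraries, is not drawn; lists of lymphocytes lie near the top and those of hypoxia, pericytes and erythroid cells near the bottom.

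The targets of olaparib and the genes deleted in the tumour cells were at similar levels in both groups. Parp1 had 305, 263 and 294 CPM in PARPi tumours and 296, 280 and 268 CPM in controls (log2 change 0.03 ± 0.08), and Parp2 changed by 0.05 ± 0.07. Brca1, whose transcript is still read in these tumours of mixed cells, had 18.8, 19.7 and 21.997 CPM with olaparib and 17.4, 18.7 and 19.3 CPM without it (0.13 ± 0.19). The values were 0.03 ± 0.14 for Brca2 and 0.01 ± 0.09 for Trp53. The smallest edgeR adjusted p of these 5 genes was 0.845, and a transcript level shows neither deletion nor enzyme activity. Leaving out 1 library at a time or adding a covariate turned the sign of Parp1, Brca1 or Trp53, and the values whose sign turned were at most 0.09 in size. The wider list of PARP enzymes and enzymes that remove ADP-ribose had 7 of 15 positive changes and a median of 0.00, with members between -0.20 and 0.22. Parp3, a relative of PARP1 that also acts at DNA breaks, had the smallest p of the list and stood at 0.19 ± 0.07 (edgeR adjusted p = 0.296).

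Genes of DNA repair moved little. Homologous recombination and fork protection genes had 17 of 26 positive changes with a median of 0.13 and 0 called, and the end-joining genes, some of which are linked to resistance when they are lost, had 8 of 17 with a median of -0.02. Trp53bp1, whose protein directs breaks away from homologous recombination, had 95.4, 100 and 107 CPM in PARPi tumours and 112, 131 and 106 CPM in controls (log2 change -0.21 ± 0.09, edgeR adjusted p = 0.362). Fanci, of the Fanconi pathway, stood at 0.33 ± 0.14 and Lig1, a DNA ligase, at 0.20 ± 0.08. Drug efflux pumps were examined because the ABCB1 pump exports olaparib. Abcb1b had 32.9, 34.5 and 38.5 CPM in PARPi tumours and 24.1, 27.6 and 28.2 CPM in controls (0.41 ± 0.16, edgeR adjusted p = 0.312), Abcb1a stood at 0.33 ± 0.14, and Abcg2 at -0.29 ± 0.13. Of 8 pumps 0 were called and 4 were positive.

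Targets of p53 had 14 of 20 positive changes and a median of 0.08. Pmaip1, which encodes the pro-apoptotic protein NOXA, had 10.7, 11.1 and 11.3 CPM in PARPi tumours and 8.25, 7.79 and 8.63 CPM in controls (0.43 ± 0.12, edgeR adjusted p = 0.162). Cdkn1a, which encodes the cell cycle inhibitor p21, stood at 22.2, 24.03 and 22.8 CPM with olaparib and at 21.2, 20.5 and 19.7 CPM without it (0.17 ± 0.15, edgeR adjusted p = 0.715).

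Genes of mitosis lay higher in PARPi tumours, by small amounts. All 20 tested members had a positive change, with a median of 0.29 and a range of 0.16 to 0.55, 6 had an unadjusted p under 0.05 and 17 had no overlap between groups, while 0 were called by the edgeR adjusted test. Over all genes tested, 6.92% were higher at an unadjusted edgeR p under 0.05 and 11.2% lay above all controls. Plk1, a kinase that drives entry into mitosis, had 39.5, 35.8 and 34.7 CPM in PARPi tumours against 26.1, 23.04 and 25.8 CPM in controls (0.55 ± 0.14, edgeR adjusted p = 0.11). Ube2c, which serves the anaphase-promoting complex, stood at 34.9, 30.9 and 33.8 CPM with olaparib and at 24.8, 21.7 and 25.99 CPM without it (0.46 ± 0.17), and Ccnb1, cyclin B1, at 0.38 ± 0.15. Each PARPi value of these 3 genes exceeded each control value. DNA replication genes had 19 of 20 positive changes with a smaller median of 0.12, led by Cdt1 (0.34 ± 0.12) and Rrm2, a subunit of ribonucleotide reductase (0.33 ± 0.13). In bulk tissue these values do not show which cells divided.

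The sensors upstream of interferon showed 11 of 14 positive changes with a median of 0.11. Cgas, the sensor of cytosolic DNA, had 14.2, 14.3 and 13.8 CPM in PARPi tumours and 10.3, 12.1 and 10.3 CPM in controls (0.37 ± 0.12, edgeR adjusted p = 0.21), with no overlap. Tmem173, which encodes STING, stood at 52.0, 51.7 and 56.9 CPM with olaparib and 50.7, 48.9 and 54.1 CPM without it (0.06 ± 0.11), and the groups overlapped. Ifih1, an RNA sensor that interferon itself induces, changed by 0.27 ± 0.10 and Dhx58 by 0.50 ± 0.22. Interferon transcripts were scarcely read at all. Ifnb1 had 1, 0 and 1 counts in PARPi libraries and 0, 1 and 0 counts in controls, and Ifna4 had 0 counts in all 6. Trex1, a DNase of the cytosol, had 0 counts in all 20 libraries and was not tested.

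Targets of type I interferon had a positive change for 31 of 31 members, against 47.2% of all genes, with a median of 0.31 and a range of 0.05 to 0.74. Of these 14 had an unadjusted p under 0.05 and 25 had all PARPi libraries above all controls, 0 passed the edgeR adjusted test and DESeq2 called 4. The shares of all genes tested were 6.92% higher at that unadjusted p, 11.2% above all controls and 1.59% called higher by DESeq2. Trim30a, a ubiquitin ligase of the TRIM family, had 69.5, 67.3 and 68.8 CPM in PARPi tumours against 46.2, 50.4 and 47.8 CPM in controls (0.51 ± 0.10, edgeR adjusted p = 0.0749). Ifit2, which binds RNA and restrains viruses, had 84.4, 84.7 and 82.5 CPM with olaparib and 46.1, 57.2 and 47.7 CPM without it (0.74 ± 0.16, edgeR adjusted p = 0.0825). Zbp1, a sensor of Z-form nucleic acid, stood at 0.66 ± 0.19 and Irf7, the factor that amplifies interferon, at 0.49 ± 0.15. Each PARPi library exceeded each control for these 4 genes.

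The windows of 250 bases upstream of the RefSeq start (GRCm38) were searched for the interferon-stimulated response element, the DNA site through which type I interferon is known to act on its targets, as 2 runs of GAAA with any 2 bases between them, or of TTTC on the other strand. It was present in 2.98% of 32851 such windows, and in at least 1 window of 936 of 27025 genes (3.46%). Of 21 type I interferon targets with an entry, 9 (42.9%) had it. Genes induced by interferon γ had a larger share, 9 of 13 (69.2%). It was 21.4% for class I antigen presentation genes, 6.67% for mitosis genes and 0% for hypoxia genes. Tested genes with an entry had 3.41%. The windows of 3 members of the type I list that held the element are printed with the match in capitals, to show the letters the search found. Ifit1 and Ifit3, which like Ifit2 bind RNA or join such complexes, lie outside the naming rule and were chosen after their values were seen, with changes of 0.60 ± 0.20 and 0.61 ± 0.24.
Trim30a: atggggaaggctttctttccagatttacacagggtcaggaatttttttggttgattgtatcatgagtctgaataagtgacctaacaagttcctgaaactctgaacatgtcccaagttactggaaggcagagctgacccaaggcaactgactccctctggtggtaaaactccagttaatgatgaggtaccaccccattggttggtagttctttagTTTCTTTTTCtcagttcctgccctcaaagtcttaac
Ifit1: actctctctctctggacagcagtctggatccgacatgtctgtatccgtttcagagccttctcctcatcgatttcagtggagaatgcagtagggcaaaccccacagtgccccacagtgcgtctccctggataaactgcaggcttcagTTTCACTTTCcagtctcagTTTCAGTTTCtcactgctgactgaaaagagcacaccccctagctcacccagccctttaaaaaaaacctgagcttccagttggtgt
Ifit3: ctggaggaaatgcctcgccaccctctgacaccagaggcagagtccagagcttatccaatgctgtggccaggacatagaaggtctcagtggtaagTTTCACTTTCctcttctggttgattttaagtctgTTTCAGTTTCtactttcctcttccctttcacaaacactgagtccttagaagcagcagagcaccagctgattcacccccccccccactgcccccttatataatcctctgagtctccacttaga
The windows are chr7:104465194-104465443 on the minus strand for Trim30a, and chr19:34640639-34640888 for Ifit1 and chr19:34583279-34583528 for Ifit3, both on the plus strand. Ifit1 and Ifit3 hold 2 matches each, and the match of Trim30a ends 27 bases before the start. A match is a run of letters and not a measured site.

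Genes induced by interferon γ had 18 of 19 positive changes and a median of 0.40, with 0 called. Irf8, a myeloid transcription factor, had 44.6, 46.0 and 41.2 CPM in PARPi tumours against 29.9, 34.1 and 28.9 CPM in controls (0.51 ± 0.13, edgeR adjusted p = 0.121), and Gbp5, a GTPase that acts against intracellular microbes, stood at 0.58 ± 0.21. Antigen presentation genes lay higher as well. Class I genes were positive for 16 of 16 with a median of 0.33, and H2-Q7 was the member called. Tap2, a subunit of the peptide transporter, had 166, 166 and 135 CPM in PARPi tumours and 126, 119 and 122 CPM in controls (0.35 ± 0.09, edgeR adjusted p = 0.139). Class II genes were positive for 10 of 10 with a median of 0.35, H2-Ab1 with 865, 837 and 705 CPM against 627, 658 and 579 CPM in controls (0.37 ± 0.13). Cd274, which encodes the checkpoint ligand PD-L1, had 44.2, 44.0 and 42.9 CPM in PARPi tumours and 31.4, 39.9 and 29.9 CPM in controls (0.37 ± 0.19, edgeR adjusted p = 0.481).

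Plasma cell genes had the largest median of the lymphocyte lists, at 1.40, with 17 of 17 positive changes, 14 at an unadjusted p under 0.05, 1 called by edgeR (Pou2af1) and 11 by DESeq2. For all genes tested the shares were 6.92% higher at that unadjusted p, 0.0551% called higher by edgeR and 1.59% by DESeq2. Irf4, a transcription factor needed for plasma cells, had 41.3, 32.9 and 26.5 CPM in PARPi tumours against 10.7, 11.1 and 13.4 CPM in controls (1.52 ± 0.30, edgeR adjusted p = 0.0753). Jchain, which joins polymeric IgA and IgM, had 2399, 2284 and 1347 CPM with olaparib and 515, 516 and 867 CPM without it (1.67 ± 0.37, edgeR adjusted p = 0.0826). Bhlha15, a factor of secretory cells, stood at 10.1, 8.93 and 5.31 CPM in PARPi tumours and 2.01, 2.35 and 3.27 CPM in controls (1.67 ± 0.32, edgeR adjusted p = 0.0622). In each of these genes PARPi replicate 3 was the lowest PARPi library and control replicate 3 the highest control.

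Immunoglobulin transcripts took 3.98, 3.37 and 2.53% of all counts in PARPi libraries, against 0.976, 1.00 and 1.43% in controls, or 3.29 ± 0.723% and 1.14 ± 0.255% (SD, n = 3 each). The groups did not overlap, and an exact two-sided permutation test gave p = 0.1, the smallest that 3 against 3 libraries allow. The classes differed. The kappa light chain Igkc took 1.43 ± 0.276% in PARPi libraries and 0.471 ± 0.124% in controls, a ratio of 3.04. IgA (Igha) took 0.596 ± 0.195% and 0.144 ± 0.0446%, a ratio of 4.12, and the 4 IgG constant regions had a ratio of 2.53. IgM, the class that naive B cells make, took 0.0958, 0.132 and 0.0846% in PARPi libraries and 0.134, 0.0668 and 0.112% in controls, a ratio of 0.999. The 4 lambda constant regions overlapped between groups, with a ratio of 1.43. Of 176 tested variable segments 118 had a positive change, with a median of 1.65 and 0 called. Segments of these families are near copies, so single segments are uncertain and are not named.

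**Figure D3:**
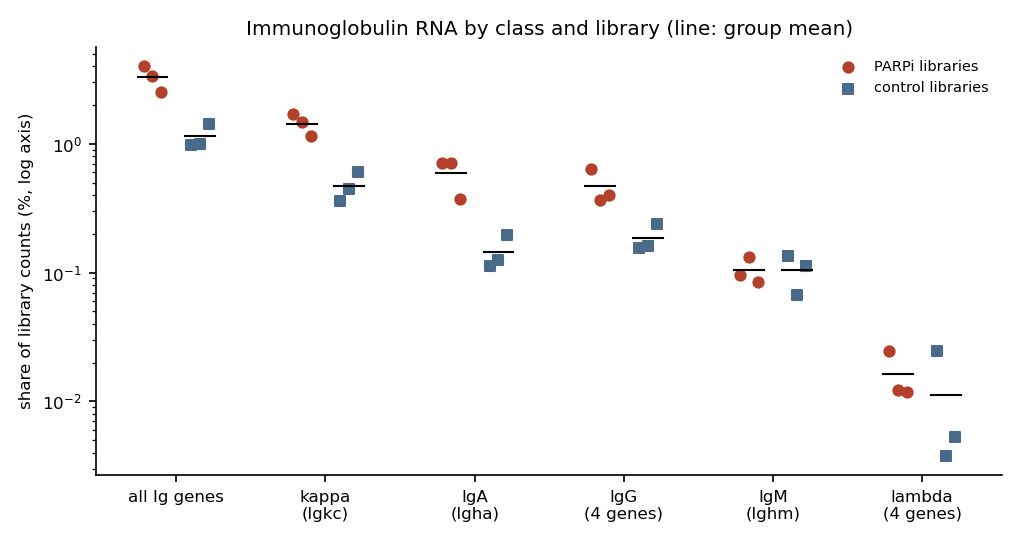
Share of all counts taken by immunoglobulin genes and by classes of constant region in each library, in percent on a log axis, with PARPi libraries as circles left of control squares and lines at group means. The groups lie apart for all genes together, kappa, IgA and IgG, and overlap for IgM and lambda.

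B cell genes were less uniform. They had 12 of 16 positive changes with a median of 0.50 and Ly6d called. Cd79a, a signalling chain of the B cell receptor that plasma cells also keep, had 40.9, 35.6 and 25.2 CPM in PARPi tumours against 11.1, 12.6 and 16.6 CPM in controls (1.33 ± 0.35, edgeR adjusted p = 0.13), and Cd37, a tetraspanin of B cells, 15.5, 15.4 and 14.9 CPM against 9.98, 9.37 and 9.69 CPM in controls (0.66 ± 0.17, edgeR adjusted p = 0.123). The lowest member stood at -0.22.

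T cell genes were positive for 20 of 20, with a median of 0.60, a range of 0.21 to 0.87, 14 at an unadjusted p under 0.05 and 15 with no overlap. EdgeR called 0 and DESeq2 4, while DESeq2 called 1.59% of all genes tested as higher. At an unadjusted edgeR p under 0.05, 6.92% of all genes were higher, and 11.2% lay above all controls. Cd4, the coreceptor of helper T cells that some macrophages and dendritic cells also carry, had 29.6, 28.7 and 21.4 CPM in PARPi tumours and 13.3, 18.3 and 13.8 CPM in controls (0.81 ± 0.22, edgeR adjusted p = 0.134). Cd3d, a chain of the T cell receptor complex, had 5.38, 4.63 and 3.62 CPM with olaparib and 2.58, 2.65 and 2.35 CPM without it (0.85 ± 0.23, edgeR adjusted p = 0.146). T cell receptor genes together took 0.00456 ± 0.000498% of counts in PARPi libraries and 0.0032 ± 0.000367% in controls, a ratio of 1.42 (exact two-sided permutation p = 0.1). Control replicate 2 was the highest control for the list and lay below every PARPi library.

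Genes of cytotoxic cells were positive for 13 of 15 with a median of 0.65, at low levels. Prf1, perforin, had 2.13, 1.41 and 1.40 CPM in PARPi tumours and 0.598, 0.974 and 0.496 CPM in controls (1.26 ± 0.45, edgeR adjusted p = 0.278). Genes of natural killer cells were positive for 9 of 10 with a median of 0.62, and their mean level was below 1 CPM in all 6 libraries. Genes of regulatory T cells and checkpoint receptors were positive for 15 of 15 with a median of 0.45. Tigit, an inhibitory receptor, had 10.2, 6.81 and 6.74 CPM in PARPi tumours against 3.31, 4.03 and 3.97 CPM in controls (1.07 ± 0.26, edgeR adjusted p = 0.109), and Foxp3, which defines regulatory T cells, 7.66, 5.91 and 7.06 CPM against 5.04, 3.93 and 2.94 CPM in controls (0.79 ± 0.23, edgeR adjusted p = 0.165). Ctla4, a target of the antibodies used in other groups, stood at 0.44 ± 0.33.

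Among chemokines and their receptors 13 of 15 were positive, with a median of 0.28. Cxcr3, the receptor through which T cells and plasmablasts follow interferon-induced chemokines, had 11.1, 9.28 and 7.44 CPM in PARPi tumours against 2.71, 3.93 and 3.87 CPM in controls (1.40 ± 0.34, edgeR adjusted p = 0.105). Cxcl12, a stromal chemokine, ran the other way, with 66.3, 85.6 and 87.2 CPM against 104, 106 and 94.6 CPM in controls (-0.35 ± 0.11, edgeR adjusted p = 0.191). Inflammatory cytokines were split, with 9 of 19 positive. Beside the called Il23a, Il12a, the p35 subunit of interleukin 12, stood at -1.44 ± 0.47, while Tnf had 3.77, 4.18 and 4.20 CPM in PARPi tumours and 2.08, 2.42 and 2.68 CPM in controls (0.76 ± 0.24, edgeR adjusted p = 0.201). Ebi3, the subunit shared by interleukins 27 and 35, stood at 0.76 ± 0.18 (edgeR adjusted p = 0.102).

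Dendritic cell genes were positive for 13 of 15 with a median of 0.54. Ccl22, a chemokine of mature dendritic cells that attracts regulatory T cells, had 18.3, 15.6 and 14.3 CPM in PARPi tumours against 8.88, 9.34 and 7.74 CPM in controls (0.89 ± 0.18, edgeR adjusted p = 0.0753), and Flt3, the receptor on which dendritic cells depend, stood at 0.97 ± 0.25 (edgeR adjusted p = 0.125). Macrophage genes were positive for 16 of 17 but with a median of 0.25. C1qc, a complement subunit that tissue macrophages make, had 186, 201 and 191 CPM in PARPi tumours and 147, 157 and 149 CPM in controls (0.35 ± 0.12, edgeR adjusted p = 0.235), and Apoe 1364, 1441 and 1371 CPM against 1026, 1098 and 1066 CPM in controls (0.39 ± 0.14). Neutrophil genes, near the limit of reading, were negative for 8 of 12 with a median of -0.36, which gives no stable direction: it was -1.28 without PARPi replicate 1, 0.06 without PARPi replicate 3, -0.11 without PARPi replicate 2, 0.29 without control replicate 2, -0.22 without control replicate 1 and -0.58 without control replicate 3. The members ran from -1.28 to 1.58, and for 0 of them did every PARPi library lie below every control. In 3 members every PARPi library lay above every control, as for 11.2% of all genes tested. These 3 were Cxcr2 (1.58 ± 0.74), Il1r2 (0.57 ± 0.24) and Csf3r, the receptor for G-CSF. Cxcr2 had only 0.489, 0.161 and 0.350 CPM in PARPi tumours and 0.063, 0.134 and 0.132 CPM in controls. Csf3r stood at 19.0, 18.6 and 19.6 CPM in PARPi tumours against 11.1, 14.5 and 12.004 CPM in controls (0.61 ± 0.13, edgeR adjusted p = 0.0753). Mast cell and eosinophil genes were positive for 5 of 12 with a median of -0.06. Prg2, a granule protein of eosinophils, stood at 1.30 ± 0.33, and Ccr3, Fcer1a and Tpsb2 at -1.33 ± 1.21, -0.28 ± 0.49 and -0.17 ± 0.31. Epx, of the same list, had 0 counts in all 6 libraries and was not tested. The value of Prg2 alone does not show more eosinophils.

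**Figure D4:**
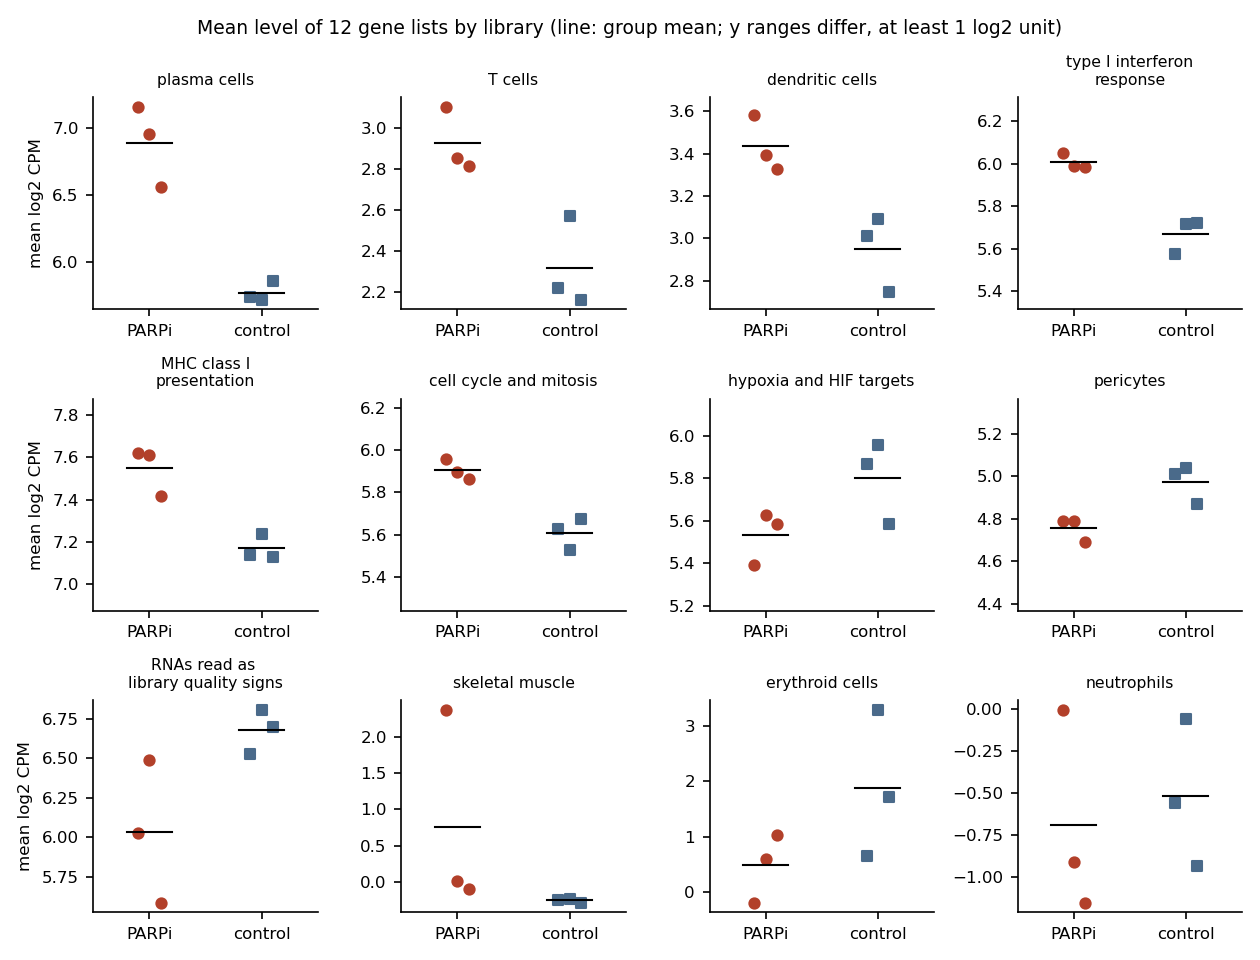
Mean log2 CPM of 12 gene lists in each library, with PARPi circles left of control squares and lines at group means; the range of the vertical axis differs between panels. Immune lists lie apart between groups, hypoxia, erythroid and neutrophil lists overlap, and 1 PARPi library carries the muscle list.

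Targets of the hypoxia factor HIF lay lower in PARPi tumours for 16 of 17 members, with a median of -0.25, 4 at an unadjusted p under 0.05, 7 with no overlap between groups and 0 called. Among all genes tested, 4.46% were lower at an unadjusted edgeR p under 0.05 and 8.61% lay below all controls. Car9, carbonic anhydrase 9, which balances acid in tissue short of oxygen, had 3.598, 5.17 and 4.07 CPM in PARPi tumours against 7.68, 13.7 and 7.77 CPM in controls (-1.18 ± 0.32, edgeR adjusted p = 0.135). Kdm3a, a histone demethylase that hypoxia induces, stood at -0.28 ± 0.10, and Egln3, an oxygen-sensing hydroxylase, at -0.38 ± 0.17 with overlapping groups. The list means of the groups overlapped, at 5.39 to 5.63 log2 CPM in PARPi tumours and 5.58 to 5.96 in controls, with control replicate 3 inside the PARPi range. Glycolysis genes were negative for 14 of 15 with a median of -0.14, Tpi1 with 388, 417 and 393 CPM in PARPi tumours and 524, 486 and 431 CPM in controls (-0.27 ± 0.12). Vegfa, the angiogenic factor that hypoxia induces, had 542, 643 and 575 CPM in PARPi tumours and 768, 765 and 613 CPM in controls (-0.29 ± 0.19, edgeR adjusted p = 0.61).

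The core letters to which HIF binds, ACGTG or CACGT for the 2 strands, were found in the 250 upstream bases of 10 of 14 hypoxia genes with an entry (71.4%) and of 18.5% of all 27025 genes. These 5 letters also occur inside the E-box CACGTG. They were found for 23.6% of the 12482 tested genes with an entry. The share was 35.7% for class I genes, 33.3% for mitosis genes, 15.4% for interferon γ genes and 4.76% for type I interferon targets. The window of Car9 (chr4:43506776-43507025, plus strand, RefSeq GRCm38) is printed as that of the member with the smallest p, with the match, 14 bases before the start, in capitals.
Car9: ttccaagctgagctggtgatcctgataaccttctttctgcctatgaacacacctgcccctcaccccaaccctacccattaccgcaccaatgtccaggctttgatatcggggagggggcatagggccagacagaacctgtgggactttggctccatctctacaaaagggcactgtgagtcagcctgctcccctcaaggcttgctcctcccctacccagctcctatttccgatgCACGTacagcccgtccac

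Pericyte genes were negative for 10 of 12 with a median of -0.19, and 6 lay below all controls, as did 8.61% of all genes tested. Rgs5, a regulator of G protein signalling in pericytes, had 145, 149 and 161 CPM in PARPi tumours and 195, 251 and 171 CPM in controls (-0.44 ± 0.23, edgeR adjusted p = 0.486), and Abcc9, a potassium channel subunit of the same cells, stood at -0.53 ± 0.18. Endothelial genes were positive for 7 of 17, against 47.2% of all genes, with a median of -0.04. Esam, with the smallest p of the list, lay lower in every PARPi library at -0.34 ± 0.12 (edgeR adjusted p = 0.291). Tal1 stood at -0.60 ± 0.31 with overlapping groups. Selp, P-selectin, and Lyve1, a receptor of lymphatic vessels and some macrophages, lay higher in every PARPi library, at 1.44 ± 0.69 and 0.81 ± 0.43. Selp drew most of its difference from PARPi replicate 3, with 2.16, 2.60 and 8.23 CPM in PARPi tumours and 1.45, 1.81 and 1.52 CPM in controls. With the covariate of library RNAs described further on, the medians were -0.04 for pericytes and 0.04 for endothelial genes.

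Genes by which ID8 cells resemble epithelium and mesothelium were split. Krt7 had 12.6, 15.03 and 8.68 CPM in PARPi tumours against 27.5, 19.1 and 25.4 CPM in controls. Msln, mesothelin, had 267, 258 and 238 CPM with olaparib and 405, 307 and 297 CPM without it (-0.40 ± 0.09, edgeR adjusted p = 0.0881). Both lay lower in every PARPi library. The epithelial adhesion genes went the other way at low levels, Epcam with 4.66, 3.31 and 2.64 CPM in PARPi tumours and 1.86, 1.68 and 1.65 CPM in controls (1.03 ± 0.26, edgeR adjusted p = 0.121) and Cdh1, E-cadherin, at 0.67 ± 0.18. Of 17 tested members 12 were negative.

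Among genes of at least 5 CPM with the largest differences, immunoglobulin genes and unnamed gene models left out, Slpi, a secreted protease inhibitor, had 75.7, 44.6 and 36.2 CPM in PARPi tumours against 10.4, 15.2 and 20.0 CPM in controls (1.78 ± 0.47, edgeR adjusted p = 0.133). Ly6c2, a surface antigen of monocytes and of some lymphocytes and plasma cells, had 84.6, 113 and 74.8 CPM with olaparib and 19.3, 19.8 and 46.2 CPM without it (1.68 ± 0.34, edgeR adjusted p = 0.0753). Cacna1h, a T-type calcium channel, stood at 1.72 ± 0.32 (edgeR adjusted p = 0.0529), Cmah, which makes the sialic acid Neu5Gc, at 1.52 ± 0.35, and Ccdc3 at 1.88 ± 0.48. Prg4, lubricin, and Alox15, a lipoxygenase, both known from large peritoneal macrophages, drew most of their difference from PARPi replicate 3, with 23.5, 32.0 and 96.2 CPM in PARPi tumours and 15.4, 16.3 and 13.1 CPM in controls for Prg4 and 14.4, 19.3 and 52.96 CPM and 10.8, 7.25 and 8.76 CPM for Alox15.

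The lower end held Ptgds, prostaglandin D2 synthase, with 61.9, 59.7 and 47.8 CPM in PARPi tumours against 98.8, 73.8 and 132 CPM in controls (-0.85 ± 0.18, edgeR adjusted p = 0.0753). Rragd, a GTPase that passes nutrient signals to mTORC1, had 12.1, 14.7 and 9.12 CPM with olaparib and 23.4, 17.2 and 21.9 CPM without it (-0.80 ± 0.16, edgeR adjusted p = 0.0753). Rhox5, a homeobox gene of the X chromosome, stood at -1.93 ± 0.68, Pgc at -1.03 ± 0.43, Aldh3a1 at -0.91 ± 0.40, Lrp8os2 at -0.90 ± 0.30 and Chst4 at -0.86 ± 0.23, with edgeR adjusted p from 0.134 to 0.39. Hspd1-ps3, a pseudogene whose reads may belong to other copies, had 0.518, 0.675 and 0.413 CPM in PARPi tumours and 0.693, 41.0 and 31.0 CPM in controls.

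Some measures of tissue and library moved with the groups. Lars2, a locus that can take up ribosomal RNA reads, had 47.7, 49.5 and 34.6 CPM in PARPi libraries against 69.8, 69.4 and 72.8 CPM in controls (-0.68 ± 0.15, edgeR adjusted p = 0.0863). It belongs to a list of RNAs read as library quality signs, with Rn7sk, Neat1 and Mir6236 among the others. All 5 tested members of that list were lower, with a median of -0.56. The average log2 CPM of Lars2, Mir6236 and Rn7sk was 2.99 to 4.31 in PARPi libraries and 4.47 to 4.82 in controls. It was also below the controls in CB libraries, given no olaparib, at 2.74 to 3.08, and in PARPi_CB libraries, at 2.95 to 3.53. With that average as a covariate, edgeR called 0 genes, the sign of Vegfa, Tmem173, Brca1, Trp53 and Mir6236 turned, and the median changes stood at 0.20 for type I interferon targets, 0.15 for mitosis and -0.10 for hypoxia. The members of the type I interferon list with an unadjusted edgeR p under 0.05 then numbered 6 in place of 14, and without PARPi replicate 1 they numbered 9. Skeletal muscle genes averaged 2.36 log2 CPM in PARPi replicate 1 and from -0.28 to 0.01 in the other 5 libraries, where Myh4, a muscle myosin named here after its values were seen, had 881 counts in that library and 0 or 1 in the others. Without that library the muscle median was 0.02, and the values of Ckm and Tnnt3 turned to -0.60 and -0.33. Erythroid genes were lower for 9 of 9, with a list mean of -0.19 to 1.03 log2 CPM in PARPi libraries and 0.65 to 3.28 in controls, highest in control replicate 2. Acinar genes of the pancreas averaged -2.57 to -2.37 log2 CPM in PARPi libraries and -2.04 to 0.36 in controls, with Cpa1 and Ctrb1 at 0 counts in all PARPi libraries. The part of these differences in the results was not tested beyond these values.

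In animals that share no library with this comparison, olaparib was added to checkpoint blockade (PARPi_CB against CB). EdgeR called 158 genes there (0.871%), 96 higher and 62 lower. CB replicate 3 averaged 3.21 log2 CPM for acinar genes of the pancreas, against -2.09 and -2.07 in CB replicates 1 and 2. Without CB replicate 3 the count was 492. Of the 12 genes called with olaparib alone all 12 had the same sign in PARPi_CB against CB. There 8 had an unadjusted edgeR p under 0.05, and 1, Ccdc88b, was called. Of all genes 8.89% were higher at an unadjusted p under 0.05 in those animals. Pou2af1 changed by 0.87, Ptprcap by 0.73, Ccdc88b by 0.55, H2-Q7 by 0.69 and Il23a by -0.40. Of the 2065 genes at an unadjusted p under 0.05 with olaparib alone, 83.3% had the same sign in the other animals, against 64.6% of all genes tested, which include them. Across all 18144 genes, which are not independent, the changes of the comparisons had a Pearson r of 0.367.

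Lists of lymphocytes and mitosis had positive medians in both settings, and the interferon lists did not. T cell genes had a median of 0.70 with 20 of 20 positive when olaparib was added to checkpoint blockade, against 0.60 with olaparib alone. Mitosis genes had 0.43 with 20 of 20 positive, and plasma cell genes 0.51 with 17 of 17 positive. The mean level of the mitosis list was 5.90, 5.59 and 5.52 log2 CPM in PARPi_CB libraries and 4.94, 5.21 and 5.56 in CB libraries. These groups overlapped, and untreated controls stood at 5.53 to 5.68. Type I interferon targets had a median of -0.09 with 10 of 31 positive, and targets of interferon γ -0.17 with 3 of 19 positive. Trim30a stood at 0.09 there, Ifit2 at -0.29, Zbp1 at -0.01 and Irf7 at -0.01. The type I list averaged 5.78, 5.77 and 5.325 log2 CPM in PARPi_CB libraries and 5.58, 5.72 and 5.89 in CB libraries. The interferon γ list averaged 5.81, 5.46 and 5.84 in PARPi_CB libraries and 5.67, 5.91 and 6.09 in CB libraries. For both lists these groups overlapped. Untreated controls stood at 5.58 to 5.72 for type I and at 5.14 to 5.47 for interferon γ. The difference between the olaparib contrasts was tested per gene as an interaction, and edgeR called 0 of 18144 genes (0%, smallest adjusted p 0.869), with 946 at an unadjusted p under 0.05 and 11 called by DESeq2. A difference between lists was not tested.

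**Figure D5:**
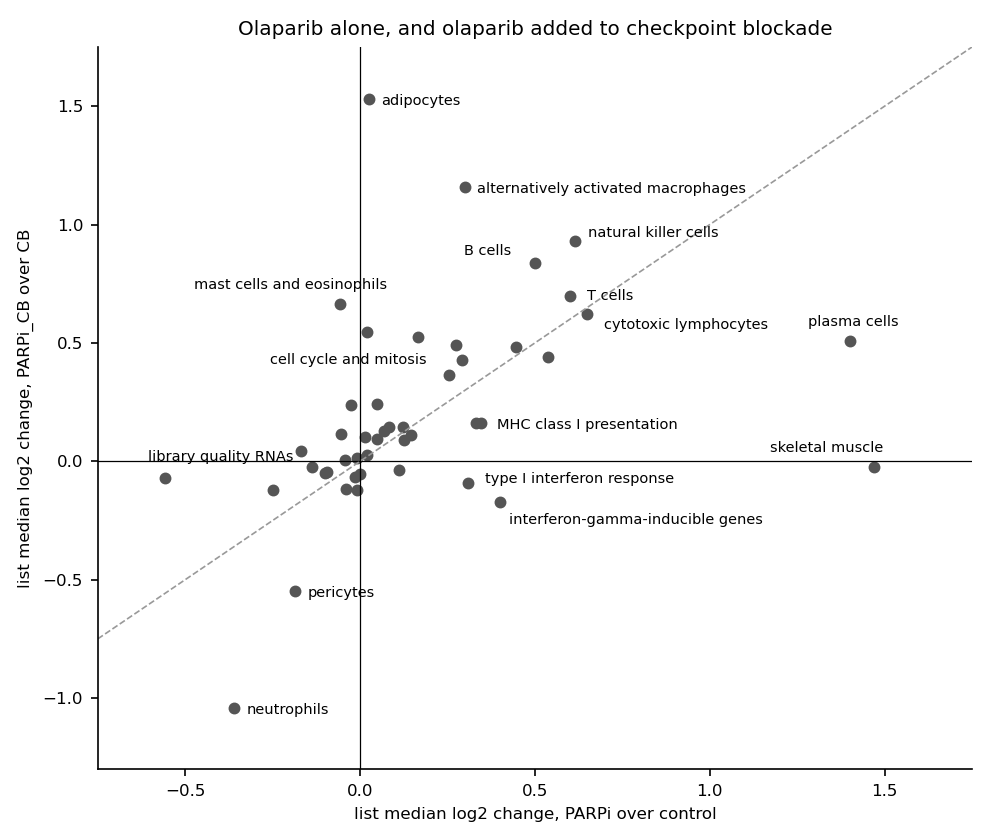
Median log2 change of each gene list for PARPi over control (horizontal) and for PARPi_CB over CB (vertical), with a dashed line of equality; 46 lists are drawn, without the acinar and erythroid lists. T cell, cytotoxic and mitosis lists are positive on both axes, and the interferon lists are positive on the horizontal axis and below 0 on the vertical one.

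Olaparib alone was also set directly against checkpoint blockade alone, a comparison that uses the same PARPi libraries, with 102 genes called by edgeR (0.562%), 72 higher and 30 lower in PARPi tumours. Without 1 library at a time this count ran from 0 to 265, the last without CB replicate 3. Of the 20 mitosis genes 9 were called, all higher in PARPi tumours, with a list median of 0.68, Plk1 at 0.79 and Ccnb1 at 0.79. The mean level of that list was 5.86 to 5.96 log2 CPM in PARPi libraries and 5.53 to 5.68 in controls. In CB libraries it was 4.94, 5.21 and 5.56, so CB replicates 1 and 2 lay below every control. Cgas was called as well, at 0.53. Ighm was lower by 2.45 on the log2 scale in PARPi tumours, while Igkc and the median of the plasma cell list, at 0.00, lay near those of checkpoint blockade. Chil3, a chitinase-like protein of alternatively activated macrophages, was lower at -6.49 ± 1.14 and Rgs22 at -2.35 ± 0.41, and Folh1 was higher at 3.26 ± 0.60. T cell genes had a median of -0.06 with 0 called.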

How the data were processed

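Bulk RNA of 20 frozen tumours in 6 groups was sequenced from stranded libraries depleted of abundant RNA. Whole-number read counts per gene were deposited by the authors, with STAR, HTSeq and GRCm38 named per the submitters' processing notes; versions, the strand setting and the treatment of multi-mapping reads are not given in the sources used here. A deposited log2 table of RPKM, whose values show a pseudocount of 1, served only as an alternative; how it was scaled is not given in the sources used here. Columns were matched to samples by title, and gene names came from GENCODE M21. Genes passed edgeR's filterByExpr (minimum count 10, minimum total 15) over all 20 libraries. EdgeR 4.0.16 in R 4.3.3 (TMM scaling, quasi-likelihood test) was fitted on all 6 groups, which share 1 estimate of spread, with Benjamini-Hochberg adjustment over 18144 genes. Log2 changes are PARPi over control, and CPM use effective library sizes. Log2 CPM values, as in the list means and the differences between libraries, use a prior count of 2. For the fitted changes no prior count was set beyond edgeR's default. Each SE is the size of the log2 change divided by the square root of the quasi-likelihood F. DESeq2 1.42.0 and limma 3.58.1 gave alternatives. Both count tests were checked on a set of simulated counts with 200 changed genes, where 14.9% of DESeq2's calls and 2.19% of edgeR's were false. The counts were drawn with edgeR's own estimates of spread and held no other difference between groups. The check therefore does not rank the tests on the real data.

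The text names the called genes, set targets and the 10 most extreme genes each way by fitted change. The last were taken among genes with an unadjusted p under 0.05, an average of 5 CPM or more and groups that did not overlap. Antigen receptor genes and gene models that have no proper name were left out of them. Members of lists were drawn mostly from the 4 of each list with the smallest p. Only some of those are named, and none for some lists, which is a further choice. The members and lists were chosen with earlier results of these data known. Titles name separate mice, and p-values measure only the spread between these samples. Intervals on counts cover counting error only.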

Additional observations from a re-analysis of the deposited data

How the results depend on the processing

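The number of genes called for PARPi against control, 12 (10 higher, 2 lower), depended on the test. It was 13 with DESeq2 size factors, 70 with no filter on low counts (64 higher, 6 lower), 349 with DESeq2 (289 higher, 60 lower), 171 with these 6 libraries alone (154 higher, 17 lower), and 1 with limma on the deposited log2 RPKM (0 higher, 1 lower). It was 0 (0 higher, 0 lower) without 4 libraries above 2 log2 CPM for acinar genes, all of groups other than PARPi and control, and 0 (0 higher, 0 lower) with the covariate of Rn7sk, Lars2 and Mir6236. Leaving out 1 library at a time gave 0 to 5 genes (0 to 5 higher, 0 lower). For PARPi_CB against CB the count of 158 became 824 with DESeq2, 0 with the groups alone, 68 with limma, 552 without acinar libraries, 69 with the covariate and 1 to 492 without 1 library. CB replicate 3 was 1 of the 4 acinar libraries. The interaction gave 11 with DESeq2, 1 without acinar libraries and 0 to 2 without 1 library. PARPi against CB gave 539, 17, 279 and 37 under DESeq2, the groups alone, no acinar libraries and the covariate, and 0 to 265 without 1 library. The cause of these shifts was not tested.

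With the replicate block the counts were 20 for PARPi against control (18 higher, 2 lower), 266 for PARPi_CB against CB and 63 for PARPi against CB. Same-numbered PARPi and control libraries had deviations that correlated at 0.043, -0.0348 and -0.0151 over 14630 genes, which shows no sign of pairing. So few libraries cannot exclude a shared cage, day or batch, and the labels do not say whether the numbers mark one.

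Signs turned for these genes. With the covariate, Vegfa stood at 0.024, Mir6236 at 0.42, Tmem173 at -0.0813, Trp53 at -0.00392 and Brca1 at -0.0898. Without PARPi replicate 1, Parp1 stood at -0.0135, Trp53 at -0.0478, Tnnt3 at -0.33 and Ckm at -0.595. Trp53 stood at -0.0195 without PARPi replicate 3 and at -0.0244 without control replicate 2, and Parp1 at -0.0045 without control replicate 3. Over all libraries left out in turn, Parp1 ran up to 0.0925, Trp53 to 0.0881, Tnnt3 to 2.74 and Ckm to 3.97. Of the other values for named genes 1318 kept direction and side of the threshold, 101 lost the call and 96 gained one, and 630 of the list medians moved by less than the spread between replicates while 42 moved by more. With limma on log2 RPKM the medians stood at 0.168 for T cells, 0.502 for plasma cells, 0.092 for B cells and 0.0142 for natural killer cells. With the covariate they were -0.019 for homologous recombination, 0.0184 for DNA replication and 0.0635 for VEGF signalling.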
